A study of Rattus norvegicus with 26 samples.

Results

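The microRNAs rno-miR-192, rno-miR-194 and rno-miR-215 were followed through rat liver regeneration. They were taken by their names on the array, without the star that marks the minor strand of a hairpin, and make up 3 of the 677 miRNAs measured. Total RNA from the right lobes of male Sprague-Dawley rats, 1 rat per array, had been hybridized to 26 single-colour Agilent rat miRNA arrays. The normal group held 3 livers without partial hepatectomy (PH), although the protocol label of these samples reads sham. The other groups were remnant livers taken 6, 12, 24 or 36 hours after 1/3 PH, in which the left lateral lobe was removed, or after 2/3 PH. There were 3 arrays in every group except 6 hours after 1/3 PH, which had 2. Some source labels give 13, 14, 25, 26, 37 or 38 hours where the sample titles give 12, 24 or 36, and the titles were followed. Age was not given in the sources used here. The comparisons asked how these liver miRNAs differed from normal liver at each time, whether the size of the resection made a difference, and whether the members moved together from array to array.

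MicroRNAs are short RNAs that are cut from hairpin precursors and guide silencing complexes to messenger RNAs, mainly through a seed near the 5′ end of the mature strand. The group of miR-192, miR-194 and miR-215 is encoded in a pair of small clusters, one with a miR-192 and a miR-194 hairpin and the other with a miR-215 and a miR-194 hairpin. miR-192 and miR-194 are abundant in hepatocytes and in the gut epithelium, and miR-192 and miR-215 are known as p53-responsive brakes on the cell cycle.

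The mature strands are shown because some members share a seed and others share a cluster. In RefSeq's GRCr8 annotation, all 3 array names matched a mature entry, with miR-192 and miR-194 listed there as the 5p arms. The seed, bases 2 to 8 counted from the 5′ end, is in capitals.
rno-miR-192: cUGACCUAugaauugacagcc
rno-miR-215: aUGACCUAugauuugacagaca
rno-miR-194: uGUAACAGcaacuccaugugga
rno-miR-192 and rno-miR-215 had the same seed, and no other rat mature entry in that annotation had it (2 names in all). Over the 21 bases of miR-192 the pair was identical at 18, and the 3 differences, with the miR-192 base first, were C1A, A12U and C20A. rno-miR-194 had a different seed that 1 mature name carried. Mir192 lay on the + strand at chr1:212994209-212994318, with 100 bases between it and Mir194-2 at chr1:212994024-212994108, outside any annotated gene other than the hairpins. Mir194-1 at chr13:99382716-99382798 and Mir215 at chr13:99382990-99383086 were 191 bases apart on the + strand, within the span of Iars2. Whether the hairpins fell in an exon or an intron of Iars2 was not analysed here. The mature miR-194 of both loci has the same sequence, so the array signal for miR-194 cannot be divided between the chromosome 1 and chromosome 13 clusters.

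Each member had 2 probes with 10 spots apiece. Signals are given as scaled signal, the background-subtracted signal summed over the probes of a miRNA and divided by a factor for the brightness of the array, in arbitrary units. A level of one miRNA is never set against the level of another, since probes differ in brightness. Detection followed the scanner software's own call. Arrays had between 118 and 155 detected miRNAs, except replicate 2 of 12 hours after 1/3 PH with 91, whose brightness factor was 0.267 against 0.784 to 1.36 on the others. The results at 12 hours after 1/3 PH rest in part on this array, and values without it stand beside those named below. No spot was saturated. rno-miR-192 and rno-miR-194 were detected on all 26 arrays. The paired probes of miR-192 correlated with r = 0.87 over the arrays and those of miR-194 also with r = 0.87, and the median coefficient of variation between spots of a probe was 5.77% and 8.92%. In whole liver RNA, fewer cells of a type and less RNA per cell cannot be told apart.

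rno-miR-215 was not well above background on any array. It was detected on 0 of 26 arrays, and 0 of its 520 spots over all arrays were well above background. Its scaled signal ran from -8.33 to -0.69 with a median of -3.47, so the background-subtracted value was below 0 on every array, in normal liver as well as after both operations. The lowest signal of any probe well above background, used as the floor for signals of an array, lay between 6.92 and 24.3 scaled units. The software's detection call did not rest on this floor. The minor strands behaved in much the same way. rno-miR-192*, the 3p strand of the miR-192 hairpin, had between -5.94 and 7.21 and was detected on 1 array, a normal liver. rno-miR-194* had between -1.99 and 9.20 and was detected on 0 arrays. On that normal liver the 7.21 of miR-192* was the sum of 2 probes at 2.10 and 5.11, each below the array's single-probe floor of 6.92. No fold change was computed for these 3 miRNAs, since none was detected on all arrays of any group. The miR-215 probes stayed at background on the same arrays on which miR-192, with its 18 shared bases, was detected throughout.

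**Figure D1:**
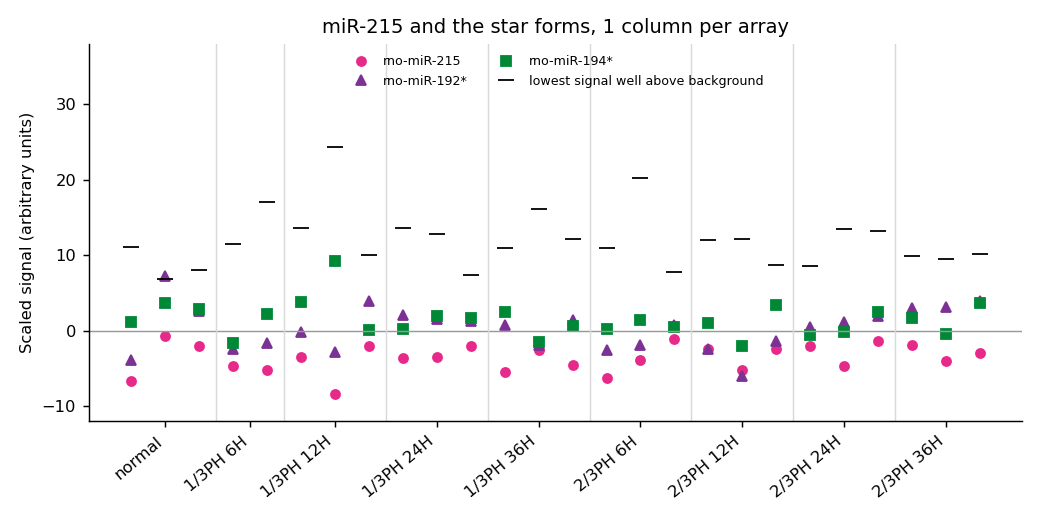
Scaled signal (arbitrary units) of rno-miR-215, rno-miR-192* and rno-miR-194* on each of the 26 arrays, grouped by operation and hours. Black dashes mark the lowest signal among the probes that the array measured well above background. All miR-215 points lie below 0, and a single star point, miR-192* on 1 normal liver at 7.21, lies above its dash. Points are sums over 2 probes while the dash is for a single probe, and the probes of that point, at 2.10 and 5.11, both lie below it.

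In the scaled signal rno-miR-192 was lower than in normal liver at 12 hours after both operations, stayed lower at 24 hours after 2/3 PH, and was near the normal level again at 36 hours. In normal liver its scaled signal was 1350, 1618 and 1450, with a mean of 1473 ± 136 (SD, n = 3). At 12 hours it was 1129, 1048 and 1151 after 1/3 PH and 1196, 1112 and 1186 after 2/3 PH. All 6 arrays at 12 hours were below all 3 normal livers.

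The mean of rno-miR-192 at 12 hours after 1/3 PH was 1109 ± 54.3 (SD, n = 3), a fold of 0.755 with a 95% confidence interval of 0.661 to 0.861. On the log2 scale the difference was -0.41 with a standard error of 0.091, and limma with Benjamini-Hochberg adjustment over the 144 fitted miRNAs gave an adjusted p of 0.0117. In this comparison 4.17% of the fitted miRNAs passed the adjusted threshold of 0.05, and in 28.5% the groups did not overlap. Of the 6 miRNAs called, 4 were lower and 2 higher than in normal liver, and 13 of the 144 had a lower log2 difference than miR-192. Without the dim array the log2 difference was -0.37 and limma's Benjamini-Hochberg-adjusted p was 0.0377.

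At 12 hours after 2/3 PH rno-miR-192 had a mean of 1165 ± 45.8 (SD, n = 3), a fold of 0.793 (95% confidence interval 0.695 to 0.904). The log2 difference of -0.34 passed the test, with a limma Benjamini-Hochberg-adjusted p of 0.0283. Here 6.94% of the fitted miRNAs were called, 9 lower and 1 higher, and 23.6% had groups that did not overlap. Both probes of miR-192 showed the fall, by 0.37 and 0.42 on the log2 scale after 1/3 PH and by 0.34 and 0.33 after 2/3 PH.

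At 24 hours the operations gave different readings for rno-miR-192. After 2/3 PH the signals were 1170, 1281 and 1165, all below normal liver, whereas after 1/3 PH they were 1432, 1450 and 1329 and overlapped it. The fold after 2/3 PH was 0.82 (95% confidence interval 0.719 to 0.936, log2 difference -0.29, limma Benjamini-Hochberg-adjusted p = 0.0377), in a comparison where 16.7% of the miRNAs were called and 34% did not overlap. The fold after 1/3 PH was 0.955 (0.837 to 1.09, adjusted p = 0.926 by limma with Benjamini-Hochberg), with 0.694% of miRNAs called. The 3 arrays after 2/3 PH were below the 3 after 1/3 PH, and 15.3% of miRNAs had no overlap in this comparison. The direct difference, a fold of 0.859 (0.753 to 0.98), had an unadjusted limma p of 0.0257 and a Benjamini-Hochberg-adjusted p of 0.301, which did not pass, with 2.78% of miRNAs called. A difference between the resections was therefore not shown for miR-192 at this time. All 3 arrays after 2/3 PH lay on a slide without normal livers or 24-hour arrays after 1/3 PH. A difference between slides cannot be told apart in either comparison of this group.

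At 6 hours rno-miR-192 had signals of 1271 and 1373 after 1/3 PH, which overlapped normal liver. After 2/3 PH it had 1224, 1239 and 1338, just below the lowest normal liver. The fold was 0.899 (95% confidence interval 0.776 to 1.04) after 1/3 PH and 0.862 (0.756 to 0.984) after 2/3 PH. Neither passed, with limma Benjamini-Hochberg-adjusted p of 0.773 and 0.408. In these comparisons limma called 0% and 0% of the miRNAs, while 8 and 15 of the 144 had an unadjusted p under 0.05, and 19.4% did not overlap between 2/3 PH and normal liver.

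At 36 hours rno-miR-192 overlapped normal liver after both operations. After 1/3 PH its signals were 1368, 1519 and 1439, and the 2/3 PH arrays read 1394, 1358 and 1523, with folds of 0.981 (0.86 to 1.12) and 0.969 (0.85 to 1.11) against normal liver. The limma Benjamini-Hochberg-adjusted p was 0.945 after 1/3 PH, where 0% of the miRNAs were called and 7 had an unadjusted p under 0.05. It was 0.805 after 2/3 PH, where 18.8% were called. Set directly against 12 hours, a comparison chosen after the values were seen, miR-192 was higher at 36 hours by a fold of 1.3 (1.14 to 1.48) after 1/3 PH and 1.22 (1.07 to 1.39) after 2/3 PH. Both passed, with limma Benjamini-Hochberg-adjusted p of 0.0244 and 0.0228, and the 36-hour arrays were above the 12-hour arrays in each operation. After 1/3 PH 8.33% of miRNAs were called between these times and 18.8% did not overlap. After 2/3 PH 27.1% were called and 44.4% did not overlap, so a difference between 12 and 36 hours was common among the miRNAs there. Without the dim array the 1/3 PH difference was 0.34 on the log2 scale, with a limma Benjamini-Hochberg-adjusted p of 0.0668. That call was also lost without 36-hour replicate 2 or 3 (0.0958 and 0.0738), and the 2/3 PH call without 12-hour replicate 2 (0.10) or 36-hour replicate 1 or 3 (0.0542 and 0.0956).

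**Figure D2:**
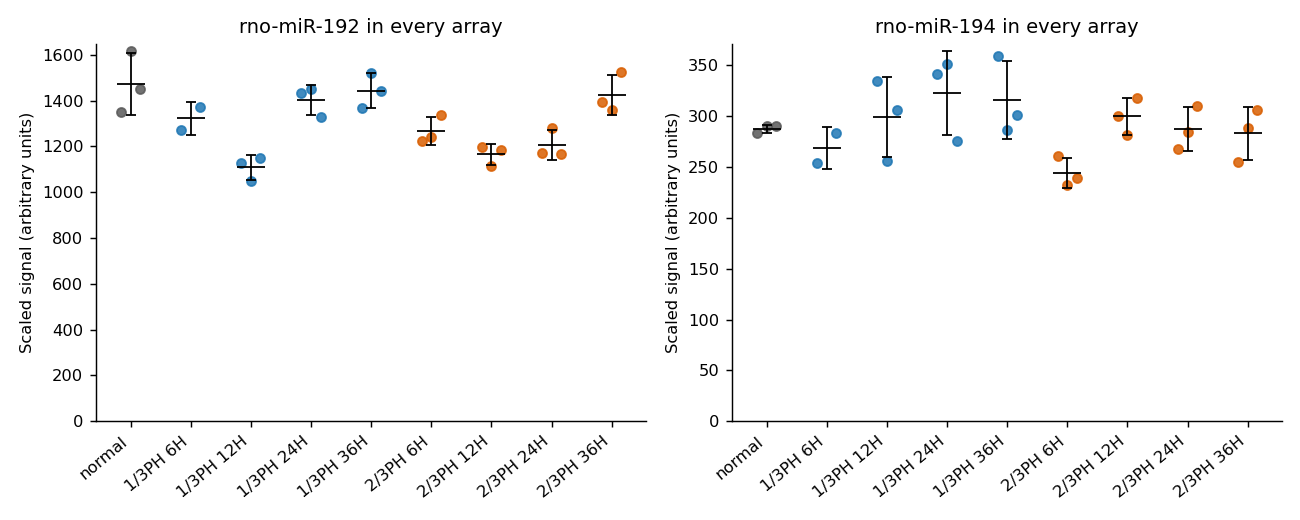
Scaled signal (arbitrary units, axis from 0) of rno-miR-192 and rno-miR-194 in every array, by group. Points are single rats, and the long dash with bars is the mean ± SD. The 6 arrays of miR-192 at 12 hours sit between 1048 and 1196, below the normal livers at 1350 to 1618, while miR-194 at 12 hours overlaps normal liver, after 1/3 PH through the dim array at 256 alone.

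Over all 9 groups the group means of rno-miR-192 spanned 1.33-fold, from 12 hours after 1/3 PH to normal liver, and limma's F test gave F = 5.27 with a Benjamini-Hochberg-adjusted p of 0.00717, in a test that 29.9% of the miRNAs passed. Without the dim array the adjusted p of this limma test was 0.00884 (Benjamini-Hochberg). In order of mean, the group at 12 hours after 1/3 PH was followed by 12 hours and 24 hours after 2/3 PH, 6 hours after 2/3 PH, 6 hours after 1/3 PH, 24 hours after 1/3 PH, 36 hours after 2/3 PH, 36 hours after 1/3 PH and normal liver. All 8 neighbouring pairs in this order overlapped in their arrays, and neighbours were not tested against each other apart from the comparisons given here. At equal times the operations differed by folds of 0.958 (0.827 to 1.11) at 6 hours, 1.05 (0.921 to 1.2; 1.02 without the dim array) at 12 hours and 0.988 (0.866 to 1.13) at 36 hours, none past the test. Between the operations limma called 0% of the miRNAs at 6 hours, where 3 had an unadjusted p under 0.05, and 0% at 12 hours, where 9 had one. It called 14.6% at 36 hours. The operation effect at 24 hours minus that at 6 hours was -0.16 ± 0.136 (log2, SE), and at 36 hours minus 6 hours 0.04 ± 0.136. Neither interaction passed, with limma Benjamini-Hochberg-adjusted p of 0.799 and 0.891, where 0.694% and 4.17% of the miRNAs were called.

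The size of the miR-192 fall depended on how the arrays were made comparable. Under quantile normalization, which gives a miRNA the value that belongs to its rank on the array, the log2 differences at 12 hours were -0.14 after 1/3 PH and -0.14 after 2/3 PH. In the deposited log2 values they were -0.23 and -0.19, with -0.28 at 24 hours after 2/3 PH. None of these passed, although the direction was the same. In that deposited table miR-192 took 5 distinct values on 26 arrays. Without any scaling the difference after 1/3 PH was -1.16, with the dim array in the group, and after 2/3 PH it was -0.60, and neither passed. Fitting only the 2 groups compared left the differences as they were but gave a limma Benjamini-Hochberg-adjusted p of 0.354 and 0.342 at 12 hours and 0.21 at 24 hours after 2/3 PH. Leaving out single normal livers moved the call as well. Without normal replicate 2, the highest of the normal livers at 1618, the log2 differences were -0.34, -0.27 and -0.22 at 12 hours after 1/3 PH, 12 hours after 2/3 PH and 24 hours after 2/3 PH, and limma's Benjamini-Hochberg-adjusted p rose to 0.0724, 0.185 and 0.17. Without normal replicate 3 the limma Benjamini-Hochberg-adjusted p was 0.058, 0.105 and 0.0804. The 12-hour call after 2/3 PH was also lost without replicate 2 or 3 of that group (0.134 and 0.0596), and the 24-hour call without replicate 1 or 3 of its group (0.109 and 0.125).

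Arrays lay on 6 slides scanned on 3 days, and these batches were spread unevenly over the groups. Slide 3 held all 3 arrays at 24 hours after 2/3 PH, all 3 at 36 hours after 1/3 PH, and no array of any other group. Differences of these groups from normal liver, or from any group off that slide, cannot be told apart from a difference between slides. Within the first scan day the log2 difference of miR-192 from the single normal liver of that day was -0.24 at 12 hours after 1/3 PH (2 arrays), -0.23 at 12 hours after 2/3 PH (2 arrays) and -0.16 at 24 hours after 2/3 PH (3 arrays). Within the third scan day, with 1 array on each side, the log2 difference of miR-192 was -0.63 and -0.45 at 12 hours after 1/3 PH and 2/3 PH. The arrays behind these values were normal replicate 2, the highest normal liver, and for the -0.63 the dim array, so that day gives no 1/3 PH value without it. With scan day as a fixed block the log2 differences were -0.43, -0.36 and -0.30, of which the last no longer passed. At these times miR-192 was lower within each scan day that held both groups, but always against 1 normal liver. A difference of the group cannot be told apart there from a difference of that liver.

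rno-miR-194 did not pass the test in any comparison. In normal liver its scaled signal was 283, 290.5 and 290.1, a mean of 287.9 ± 4.0 (SD, n = 3). At 12 hours it was 335, 256 and 307 after 1/3 PH and 300.5, 282 and 318 after 2/3 PH. The 1/3 PH group overlapped normal liver only through the dim array at 256, as its other arrays were above all 3 normal livers, and the 2/3 PH group overlapped it through the array at 282. The folds, from log2 differences of 0.05 and 0.06, had 95% confidence intervals of 0.865 to 1.23 and 0.871 to 1.24, so a change of the size seen for miR-192 in the downward direction lay outside them. The limma Benjamini-Hochberg-adjusted p was 0.849 and 0.852. Without the dim array the log2 difference after 1/3 PH was 0.15 (limma Benjamini-Hochberg-adjusted p = 0.472), and that between the operations at 12 hours turned from 0.01 to -0.10 and that from 12 to 36 hours after 1/3 PH from 0.08 to -0.03, none of which passed.

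The lowest group mean of rno-miR-194 came at 6 hours after 2/3 PH, where the arrays read 261, 233 and 239, all below the 3 normal livers. In this comparison 19.4% of the 144 fitted miRNAs had groups that did not overlap, and 0% were called. The log2 difference was -0.24 (95% confidence interval -0.49 to 0.02) and did not pass, with a limma Benjamini-Hochberg-adjusted p of 0.408. At 6 hours after 1/3 PH the signals were 254 and 284. The highest group mean was at 24 hours after 1/3 PH, 323 ± 41.4 (SD, n = 3), where the arrays read 342, 352 and 276. At 24 hours after 2/3 PH they read 268, 284 and 310.3, at 36 hours after 1/3 PH 359, 286 and 302, and at 36 hours after 2/3 PH 255, 289 and 306. All of these groups overlapped normal liver. The group means of miR-194 spanned 1.32-fold, about as widely as those of miR-192, but the mean SD within groups was 0.13 on the log2 scale against 0.08 for miR-192, and limma's F test over the groups had F = 1.84 and a Benjamini-Hochberg-adjusted p of 0.278 (0.112 without the dim array). The direction of the small miR-194 differences at 12 hours turned under some scalings, to -0.71 and -0.21 without scaling.

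**Figure D3:**
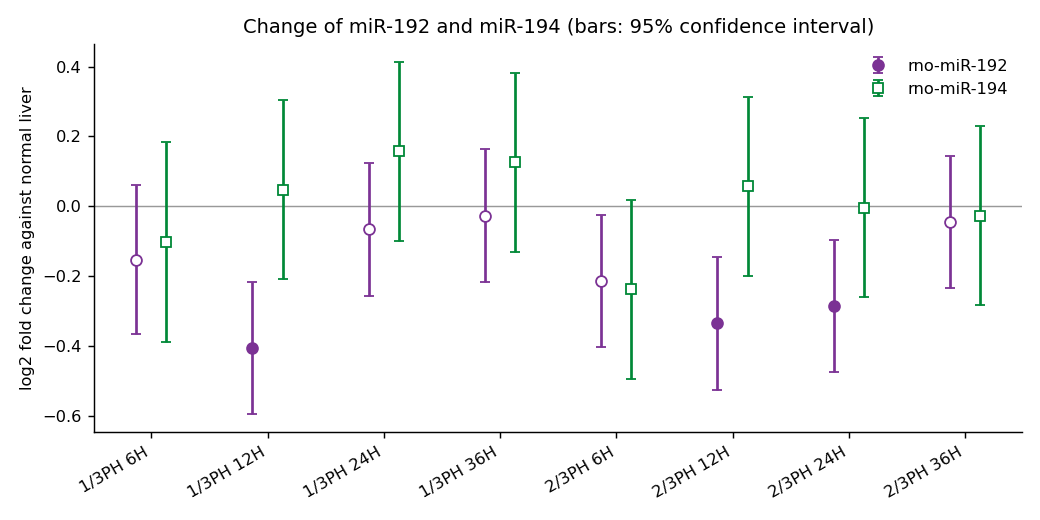
log2 fold change of rno-miR-192 (circles) and rno-miR-194 (squares) against normal liver, with the 95% confidence interval from limma. Filled symbols passed the adjusted threshold. The 3 filled symbols are miR-192 at 12 hours after 1/3 PH (-0.41), 12 hours after 2/3 PH (-0.34) and 24 hours after 2/3 PH (-0.29).

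The members were also compared within each array, where the brightness of the array cancels. The log2 ratio of rno-miR-192 to rno-miR-194 is meaningful only as a change between arrays, since its level depends on the probes. In normal liver it was 2.25, 2.48 and 2.32. At 12 hours it was 1.75, 2.03 and 1.91 after 1/3 PH and 1.99, 1.98 and 1.90 after 2/3 PH, so that all 6 arrays were below the normal livers. The mean was lower than in normal liver by 0.45 after 1/3 PH and by 0.39 after 2/3 PH. At 24 hours after 2/3 PH the ratio was 2.13, 2.17 and 1.91, again below the normal livers, and at 24 hours after 1/3 PH it was 2.07, 2.04 and 2.27, which overlapped them. The share of other ratios without overlap was not computed. Among the 144 single miRNAs it was 28.5% at 12 hours after 1/3 PH, 23.6% at 12 hours after 2/3 PH and 34% at 24 hours after 2/3 PH.

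At 6 hours the ratio of rno-miR-192 to rno-miR-194 was near that of normal liver, with 2.32 and 2.28 after 1/3 PH and 2.23, 2.41 and 2.48 after 2/3 PH. At 36 hours it overlapped normal liver as well. The 1/3 PH arrays then read 1.93, 2.41 and 2.25, the widest spread of any group (SD 0.24), and the 2/3 PH arrays 2.45, 2.24 and 2.31. Over the 9 groups the ratio differed by a permutation test of the F statistic, with F = 4.87 and p = 0.00357 from 100000 resamples. The p was 0.00356 without the dim array. It was 0.259 under quantile normalization, 0.213 in the deposited values and 0.0873 with normexp background correction.

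**Figure D4:**
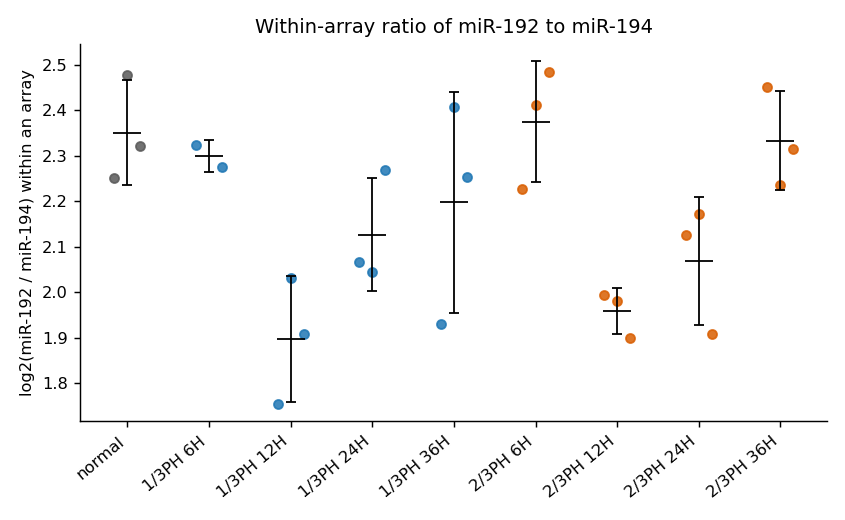
Within-array log2 ratio of rno-miR-192 to rno-miR-194 by group, 1 point per rat, with the mean ± SD as the dash and bars; the axis does not start at 0. The 6 arrays at 12 hours lie between 1.75 and 2.03, below the 3 normal livers at 2.25 to 2.48.

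From array to array rno-miR-192 and rno-miR-194 were only loosely related in the scaled signal, and their r moved with the processing. Over 26 arrays Pearson's r was 0.18 (permutation p = 0.384) and Spearman's rho 0.20 (permutation p = 0.332), both two-sided with 100000 resamples. As miR-215 gave no value, this was the only pair of members, and the Benjamini-Hochberg-adjusted p equals the raw one. For the deviations of each array from the mean of its group, which leave out the group differences, r was 0.28 (permutation p = 0.20) and rho 0.27 (p = 0.257, by permutation within groups). Without the arrays farthest from the median of miR-192, normal replicate 2 and the dim array, r over the remaining 24 was 0.11. With single arrays left out, the r of deviations from group means ran from 0.17 to 0.45. The highest, without replicate 1 of 36 hours after 1/3 PH, had a permutation p of 0.0377, and the other 25 omissions did not change the reading. With normexp background correction both r values were below 0. Within the first scan day r was 0.26 over 17 arrays (permutation p = 0.323) and within the third 0.29 over 6 arrays (permutation p = 0.565). For deviations from slide means r was 0.23. Among all 3321 pairs of the 82 miRNAs detected on every array, the median r was 0.01 with quartiles of -0.22 and 0.29, and 65.2% of pairs had a lower r than miR-192 with miR-194. Without scaling r was 0.92, where the brightness of each array enters both values. The dim array then had the lowest signal of the 26 for both members, 279 for miR-192 and 68.4 for miR-194. Its part in this r was not tested.

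**Figure D5:**
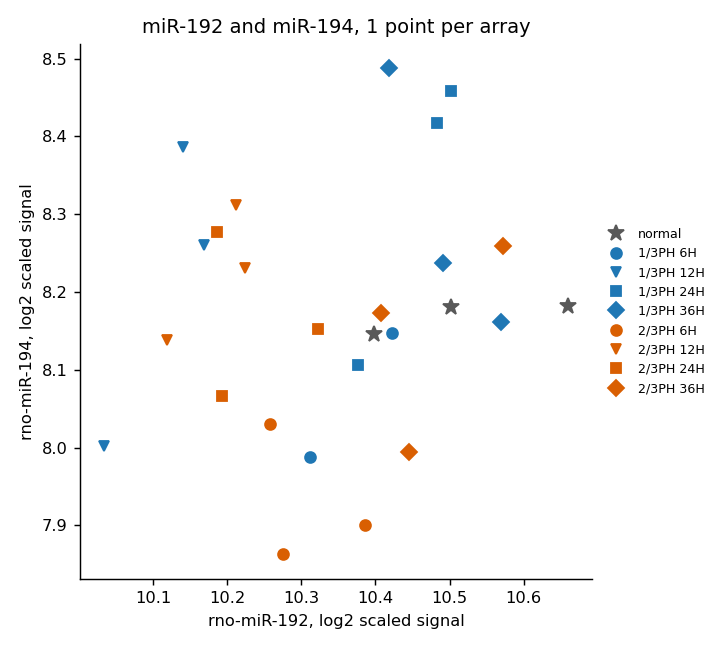
log2 scaled signal of rno-miR-194 against that of rno-miR-192, 1 point per array; colour gives the operation and shape the hours. The points spread without a common line (r = 0.18 over 26 arrays), and the 12-hour triangles gather at the low end of miR-192. In miR-194 the triangles lie between 8.14 and 8.39, apart from the dim array at 8.00, while all arrays run from 7.86 to 8.49.

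The miRNAs whose pattern over the 26 arrays was most like that of rno-miR-192 were rno-miR-30e (r = 0.79), rno-miR-29c (0.72) and rno-miR-29b (0.70), and the least like were rno-let-7a (-0.63) and rno-let-7e (-0.63). For deviations from group means these 3 had r of 0.57, 0.30 and 0.43, so part of the likeness lay in the group means. rno-miR-194 ranked 27 of 81 in likeness to miR-192. rno-miR-30e, rno-miR-29c and rno-miR-29b were picked by their r with miR-192 over these same arrays, those at 12 hours included. Lower values at 12 hours thus follow in part from the choice, and their tests below only describe the likeness. At 12 hours rno-miR-29b was lower by 0.97 after 1/3 PH and by 1.01 after 2/3 PH on the log2 scale, as folds of 0.509 and 0.497, with limma Benjamini-Hochberg-adjusted p of 0.0117 and 0.015. rno-miR-29c had folds of 0.489 and 0.539 (adjusted p = 0.0117 and 0.0283 by limma with Benjamini-Hochberg). rno-miR-30e had folds of 0.752 and 0.692, of which the second passed (limma Benjamini-Hochberg-adjusted p = 0.0563 and 0.0192). Without the dim array the folds after 1/3 PH were 0.55 for rno-miR-29b, 0.621 for rno-miR-29c and 0.792 for rno-miR-30e, with limma Benjamini-Hochberg-adjusted p of 0.0377, 0.0542 and 0.169, so that miR-29c no longer passed.

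For rno-miR-194 the most alike were rno-miR-30a (r = 0.61), rno-miR-99a (0.57) and rno-miR-31 (0.50), and the least alike rno-miR-378 (-0.57) and rno-miR-151 (-0.56). Neither rno-miR-30a nor rno-miR-99a nor rno-miR-31 passed the test at 12 hours after either operation, with folds between 0.815 and 1.18, nor after 1/3 PH without the dim array.

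Other miRNAs known to be abundant in liver gave a frame for miR-192. Of 12 listed, 11 were on the array and 10 were fitted, leaving out rno-miR-455. At 12 hours after 1/3 PH, where 4.17% of the 144 fitted miRNAs were called, 1 of 10 was called. It was rno-miR-378 with a fold of 0.535 (limma Benjamini-Hochberg-adjusted p = 0.0333), and 0 rose. Its fold was 0.489 without the dim array, and it was again the 1 call. At 12 hours after 2/3 PH, where 6.94% of all 144 were called, 3 of 10 fell and 0 rose. These were rno-miR-101a (fold 0.522), rno-miR-101b (0.629) and rno-miR-22 (0.724), with limma Benjamini-Hochberg-adjusted p of 0.015, 0.0192 and 0.0395. At 24 hours after 2/3 PH rno-miR-22 (0.757), rno-miR-26a (0.721) and rno-miR-378 (0.60) fell, and the same 3 fell at 36 hours (0.741, 0.641 and 0.543), when miR-192 was near normal liver. Of all 144 fitted miRNAs 16.7% were called at 24 hours and 18.8% at 36 hours, with 11 lower at each time. The counts of the list moved with the scaling. Without scaling, with quantile normalization and in the deposited values they were 2, 2 and 0 at 12 hours after 1/3 PH, 0, 3 and 0 at 12 hours after 2/3 PH, 0, 1 and 1 at 24 hours and 0, 3 and 2 at 36 hours after 2/3 PH.

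The median log2 difference of the 10 liver-abundant miRNAs was -0.17 at 12 hours after 1/3 PH, -0.31 at 12 hours, -0.26 at 24 hours and -0.20 at 36 hours after 2/3 PH, against medians of 0.10, 0.04, 0.05 and 0.07 over all 144 fitted miRNAs. rno-miR-122, the defining miRNA of hepatocytes, was called in none of the comparisons. Its log2 difference from normal liver was 0.13 at 12 hours after 1/3 PH, 0.12 at 12 hours after 2/3 PH and -0.09 at 24 hours after 2/3 PH. Its signal was 33390 to 40474 in normal liver and 38642 to 43690 at 12 hours after 1/3 PH.

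Markers of other cells also moved, some at the same times and some at others. In the sums given here a miRNA not detected on an array counted as 0, so the ranges depend in part on the detection calls. Of 5 bile duct miRNAs of the miR-200 family on the array 3 were fitted, the other 2 being detected on no array, and their summed signal was 26.3 to 65.3 in normal liver, higher at 12 hours after 1/3 PH with up to 119, 72.4 to 77.1 at 12 hours after 2/3 PH and 77.7 to 110 at 24 hours after 2/3 PH. Of these 3, 2 passed upwards at 12 hours after 1/3 PH, 0 at 12 hours after 2/3 PH and 2 at 24 hours after 2/3 PH. Among all 144 fitted miRNAs 4.17%, 6.94% and 16.7% were called in these comparisons, with 2, 1 and 13 upwards. Counts from different times therefore do not weigh alike. At 36 hours after 2/3 PH, when miR-192 was near normal liver, all 3 passed upwards with a sum of 96.1 to 146, the highest of any group, and at 24 hours after 1/3 PH the sum was 92.9 to 108 and 0 passed. In that 36-hour comparison 18.8% of the 144 were called, 16 of them upwards. The share was 0.694% at 24 hours after 1/3 PH, with 1 upwards. With the dim array left out, 1 of the 3 bile duct miRNAs passed at 12 hours after 1/3 PH, with a sum of up to 113. Of 4 fitted leukocyte miRNAs 0 passed at 12 hours and 2 fell at 24 hours after 2/3 PH, where 11 of the 144 fell. Of 5 fitted stellate and endothelial miRNAs 0 passed at these times, with sums of 842 to 1037 in normal liver and 625 to 966 at 12 hours after 1/3 PH (882 to 966 without the dim array). The red cell sum was 91.6 to 109.6 in normal liver and 47.2 to 62.3 at 6 hours after 2/3 PH. At 12 hours it was 63.3 to 97.5 after 1/3 PH and 58.5 to 176 after 2/3 PH. At 24 hours it was 126 to 314 after 1/3 PH and 47.8 to 106 after 2/3 PH. Its 1 fitted miRNA did not pass in any comparison, with a log2 difference of -1.11 between the operations at 24 hours. The part of these cells in the miR-192 values was not tested.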

How the data were processed

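The authors hybridized liver RNA to 1-colour arrays and deposited the scanner output of Agilent Feature Extraction 10.7.3.1 (per the file headers), with background-subtracted intensity values for each spot that were not normalized between arrays. They also deposited a table of log2 values normalized between arrays, used as an alternative only; how it was normalized is not given in the sources used here. Marked outlier spots were left out, the spots of a probe averaged and the 2 probes of a member summed. To scale the arrays, the 75th percentile of the 109 probes found well above background throughout was used as the divisor. Signals under the lowest one well above background were set to it, and log2 was taken. limma 3.58.1 in R 4.3.3 (lmFit, eBayes) was fitted to the 9 groups of 26 arrays for 144 miRNAs, those that all arrays of 1 or more groups detected, with Benjamini-Hochberg adjustment within each comparison (17 residual degrees of freedom). Permutations used Python 3.11.15 and numpy 2.4.6. Replicates were separate rats, and their number limits the precision. The fit was tested on simulated data. The members and lists were chosen with earlier results of these data known. Named miRNAs were the members, their star forms, the liver-abundant list, and for each member the 3 with the highest and 2 with the lowest r. Sequences are from RefSeq (GRCr8). The alternatives tried were other scalings and summaries, filters, batches as blocks and leaving out each array.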

Additional observations from a re-analysis of the deposited data

How the results depend on the processing

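All values are log2 differences unless named otherwise. The 3 calls of miR-192 against normal liver (12 hours after 1/3 PH, 12 hours after 2/3 PH, 24 hours after 2/3 PH) kept their direction under every alternative run, but not always their side of the threshold, and the cause was not tested. They no longer passed without scaling (-1.16, -0.60, -0.36), with quantile normalization (-0.14, -0.14, -0.24), normexp background correction (-0.53, -0.36, -0.29), the deposited values (-0.23, -0.19, -0.28) and a fit of only the groups compared (-0.41, -0.34, -0.29). Both 12-hour calls were lost with the software's total gene signal (-0.29, -0.24) and slide as a fixed block (-0.44, -0.42), which could not be fitted at 24 hours after 2/3 PH. The later 2 were lost with the percentile over all probes (-0.66, -0.75), the 12-hour call after 2/3 PH with the brightest probe (-0.33), and the 24-hour call with slide as a random block (-0.30) and scan day as a fixed block (-0.30). The F test of miR-192 had adjusted p of 0.498 without scaling, 0.113 with quantile normalization, 0.434 with normexp, 0.0991 with the total gene signal, 0.277 in the deposited values and 0.0647 with slide as a fixed block. The rise of miR-192 from 12 to 36 hours (1/3 PH, then 2/3 PH) no longer passed without scaling (1.11, 0.40), with the percentile over all probes (0.86, 0.52), quantile normalization (0.14, 0.14), normexp (0.48, 0.13), the total gene signal (0.21, 0.17), the deposited values (0.28, 0.11) and only the groups compared (0.38, 0.29), nor with slide as a random block after 1/3 PH (0.38) or as a fixed block after 2/3 PH (0.34).

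The percentile over all probes, most of which are at background, moved the median of all fitted miRNAs by more than 1 in some comparisons. With it miR-192 turned to 1.03 at 6 hours after 1/3 PH, to 0.47 between the operations at 36 hours and to 0.68 for the interaction at 24 hours, and came to pass at -1.33 between the operations at 6 hours and at 1.80 for the interaction at 36 hours. For miR-194 it gave 1.08, -1.01 and -0.45 at 6, 12 and 36 hours after 1/3 PH, -0.26 at 12 hours after 2/3 PH, -1.40 (passing) and 0.33 between the operations at 6 and 36 hours, 0.81 and 1.74 for the interactions at 24 and 36 hours and 0.15 from 12 to 36 hours after 2/3 PH.

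Uncalled values of miR-192 changed sign at 24 hours after 1/3 PH (0.085 with quantile normalization, 0.086 deposited), 36 hours after 1/3 PH (0.045 deposited), between the operations at 6 hours (0.056 with quantile normalization) and 36 hours (0.015 with scan day as a block), and for the interaction at 36 hours (-0.056 with quantile normalization, -0.12 deposited). With quantile normalization miR-192 passed between the operations at 24 hours (-0.32). Uncalled values of miR-194 changed sign without scaling (-0.71 and -0.21 at 12 hours after 1/3 PH and 2/3 PH, 0.068 and 0.031 for the interactions, 0.022 from 12 to 36 hours after 2/3 PH) and with quantile normalization (0.0091 at 6 hours after 1/3 PH, -0.0089 between the operations at 12 hours, 0.019 for the interaction at 36 hours, -0.0089 from 12 to 36 hours after 1/3 PH). With normexp they were 0.0057 and 0.14 after 2/3 PH at 24 and at 36 hours, 0.060, -0.089 and 0.042 between the operations at 6, 12 and 36 hours, and -0.050 and 0.081 from 12 to 36 hours. The total gene signal gave 0.0029 at 6 hours after 1/3 PH, -0.014 between the operations at 12 hours and -0.087 from 12 to 36 hours after 1/3 PH. The deposited values gave 0.0070 and -0.010 between the operations at 6 and 12 hours and -0.010 from 12 to 36 hours after 1/3 PH. The brightest probe gave 0.014 and 0.0022 after 2/3 PH at 24 and at 36 hours and 0.0021 for the interaction at 36 hours, and scan day as a block -0.0053 at 12 hours after 1/3 PH, 0.024 at 36 hours after 2/3 PH, 0.087 for that interaction and 0.019 from 12 to 36 hours after 2/3 PH.

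The r of miR-192 with miR-194 was 0.92 without scaling, 0.96 with the percentile over all probes and -0.34 with normexp, and for deviations from group means 0.96, 0.97, -0.48 and, in the deposited values, -0.021. The permutation p of their ratio was 0.259 with quantile normalization, 0.0873 with normexp and 0.213 in the deposited values. Over the fits that each left out 1 array, miR-192 against normal liver ran from -0.47 to -0.34 and -0.40 to -0.27 at 12 hours (1/3 PH, 2/3 PH), -0.13 to 0.0038 and -0.35 to -0.22 at 24 hours, and -0.088 to 0.043 and -0.11 to 0.025 at 36 hours. It ran from 0.34 to 0.42 and 0.24 to 0.32 between 12 and 36 hours, -0.067 to 0.020 between the operations at 36 hours and -0.012 to 0.099 for that interaction. miR-194 ran from -0.038 to 0.15 at 12 hours after 1/3 PH, -0.061 to 0.045 and -0.086 to 0.046 after 2/3 PH at 24 and at 36 hours, -0.096 to 0.096 between the operations at 12 hours, -0.14 to 0.054 and -0.097 to 0.079 for the interactions and -0.028 to 0.16 from 12 to 36 hours after 1/3 PH, and the r of deviations from 0.17 to 0.45. No paired analysis was possible because replicate numbers follow the order of deposit. With 2 or 3 rats a group small changes were not detectable, nor any change of miR-215 below the lowest signal well above background.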
